A study of Mus musculus with 17 samples.

Results

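The oxygen-sensing pathway was examined in haematopoietic stem cells (HSCs), the rare marrow cells that renew all blood lineages, through 10 genes: the hypoxia-inducible factor genes Hif1a and Epas1, the prolyl hydroxylase genes Egln1 and Egln3, the target genes Vegfa and Slc2a1, and the pyruvate dehydrogenase kinase genes Pdk1, Pdk2, Pdk3 and Pdk4. They were taken by symbol out of the 54838 genes counted in each library, and all 10 passed the filter on low counts and were tested. RNA was sequenced in bulk from 17 libraries of HSCs of C57BL/6 Jrj mice, in 4 groups. Old Mito-Q (n = 5) were mice over 18 months of age given 5 daily intraperitoneal injections of 2 mg/kg Mito-Q, a ubiquinone derivative that gathers in mitochondria. Old control (n = 3) were mice of that age without Mito-Q. Young CCCP (n = 5) were mice of 8 to 12 weeks given 1 intraperitoneal injection of 0.3 mg/kg CCCP, a protonophore that uncouples mitochondria. Young control (n = 4) were mice of 8 to 12 weeks without CCCP. In every group marrow was enriched for c-kit and live Lin- cKit+ Sca1+ CD48- CD150+ cells were sorted into trizol. Vehicle injection of controls, the time between the last injection and the sort, and the number of mice behind a library were not given, so p-values measure the spread between libraries, which may be technical.

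Of the 10 genes, Vegfa alone passed the test in edgeR, and it did so in all 4 comparisons. Of all genes tested, 0.542% passed in old Mito-Q against old control and 1.69% in old against young control. The share was 0.718% in young CCCP and 0.143% in old Mito-Q, each against young control. The Vegfa call was lost in limma-voom for old Mito-Q against old control (adjusted p = 0.114). For old Mito-Q against young control it was lost with scaling by library totals, or on leaving out any 1 of 7 of the 9 libraries. Vegfa transcripts were 6.84-fold higher in old Mito-Q HSCs than in old control HSCs, 28.3-fold lower in old control than in young control HSCs, and 21.2-fold lower in young CCCP than in young control HSCs. Hif1a was lower in every old control, young CCCP and old Mito-Q library than in any young control library, without passing the test in edgeR. Libraries lay all below the young controls for 6.5% of all genes in old control, 2.89% in young CCCP and 1.36% in old Mito-Q. For old against young control 7 of 13 alternatives called Hif1a. The transcripts of both prolyl hydroxylases and of all 4 kinases did not pass edgeR's test in any comparison, and their groups overlapped throughout.

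As background, HIF-1α, made from Hif1a, and HIF-2α, made from Epas1, are transcription factor subunits whose protein is destroyed when oxygen is plentiful, because prolyl hydroxylases such as those of Egln1 and Egln3 mark them for the VHL ubiquitin ligase. In low oxygen they pair with ARNT and switch on genes such as Vegfa, a secreted growth factor for blood vessels, and Slc2a1, the glucose transporter GLUT1. Another such gene is Pdk1, whose kinase inactivates pyruvate dehydrogenase, the mitochondrial enzyme that turns pyruvate into acetyl-CoA. HSCs in the marrow are known for reliance on glycolysis, and in mice loss of Hif1a or of Pdk2 together with Pdk4 impairs them. Much of HIF regulation acts on the protein, which transcript counts do not measure.

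The proximal promoters of 4 of these genes are given because HIF binds a short core, ACGTG or GCGTG, and the genes differ in whether that core stands in the bases next to the start. Each sequence is the 250 bases before the RefSeq start in GRCm38.p6, written 5′ to 3′ on the gene's own strand, with every match to the core, read on either strand, in capitals; a CACGTG holds the core once on each strand. Vegfa is chr17:46032378-46032627 on the minus strand, Hif1a chr12:73907617-73907866 on the plus strand, Slc2a1 chr4:119108495-119108744 on the plus strand and Pdk3 chrX:93832151-93832400 on the minus strand. The RefSeq starts of Hif1a, Slc2a1 and Pdk3 lie inside the longer GENCODE models of those genes, so part of each window can belong to the gene.
Vegfa: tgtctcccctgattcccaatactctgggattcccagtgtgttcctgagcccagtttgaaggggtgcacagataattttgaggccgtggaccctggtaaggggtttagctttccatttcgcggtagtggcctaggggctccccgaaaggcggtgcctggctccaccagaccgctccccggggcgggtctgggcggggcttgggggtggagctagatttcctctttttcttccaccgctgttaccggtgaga
Hif1a: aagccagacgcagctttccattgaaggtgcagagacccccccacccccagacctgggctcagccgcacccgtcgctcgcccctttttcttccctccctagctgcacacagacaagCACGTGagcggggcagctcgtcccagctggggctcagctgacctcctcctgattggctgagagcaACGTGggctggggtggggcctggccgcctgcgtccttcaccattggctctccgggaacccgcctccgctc
Slc2a1: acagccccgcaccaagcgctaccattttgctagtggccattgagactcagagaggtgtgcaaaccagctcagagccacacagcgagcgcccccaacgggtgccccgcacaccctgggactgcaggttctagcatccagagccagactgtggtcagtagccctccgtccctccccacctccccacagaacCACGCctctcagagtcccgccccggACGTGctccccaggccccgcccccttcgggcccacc
Pdk3: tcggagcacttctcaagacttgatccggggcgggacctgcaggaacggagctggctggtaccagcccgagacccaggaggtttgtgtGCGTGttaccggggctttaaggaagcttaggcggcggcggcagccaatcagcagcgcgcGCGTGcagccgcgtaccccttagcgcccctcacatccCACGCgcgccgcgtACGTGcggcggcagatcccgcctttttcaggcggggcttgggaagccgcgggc
The Vegfa window held no core, Hif1a held 3 matches of which 2 are the strands of 1 CACGTG, Slc2a1 held 2 and Pdk3 held 4. RefSeq's table gave a promoter for 9 of the 10 genes, with Epas1 not among them, and 8 of the 9 held at least 1 core. Among all 32851 promoters of the same length, 38.6% held a core, 16.6% held ACGTG and 28.2% held GCGTG. The 9 windows were 50.8% (Egln3) to 86.0% (Egln1) G or C. The share over all promoters was not matched for base composition, so the 2 shares do not show that these genes hold more cores than like promoters. The AP-1 site TGANTCA, the CRE site TGACGTCA and the Egr site GCGNGGGCG, sought on both strands, stood in 6.7%, 1.5% and 4.7% of all promoters. Of these only GCGNGGGCG was found among the 9, once, in Egln1, where it does not overlap the 2 cores of that window. A match is a description of letters, and its absence says only that the letters are not in this window.

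Gene totals lay between 5649611 and 8120443 reads per library. Levels are CPM, counts scaled to library size, here over the tested genes and with TMM factors. On that scale 3 reads, taken as the floor for counting error only, corresponded to 0.298 to 0.653 CPM. A change is a log2 fold change from edgeR's quasi-likelihood fit of all 17 libraries, and a gene was called, and is said to have risen or fallen, when its Benjamini-Hochberg adjusted p over the 24523 genes tested was below 0.05. Of these genes, edgeR gave an unadjusted p below 0.05 to 2464 in old Mito-Q against old control and 3487 in old against young control. The number was 2735 in young CCCP against young control and 1935 in old Mito-Q against young control. Some libraries stood apart. Young CCCP 3 had the lowest median Spearman correlation with the others (0.682, against 0.795 to 0.860 for the rest), and 74.1% of its reads belonged to no single gene; that share was 66.7% in old control 1 and 29.6% to 58.2% elsewhere. Young control 3 had the fewest genes detected (17067) and the most mitochondrially encoded reads (6.60%, against 0.967% to 4.41% elsewhere). Genes of the HSC gate and of HSC identity (Slamf1, Kit, Ly6a, Procr, Hlf, Mecom and Fgd5) were detected in every group, with Kit at 784 ± 108 CPM in old Mito-Q, 553 ± 99.6 CPM in old control, 1298 ± 459 CPM in young CCCP and 1127 ± 324 CPM in young control (SD, n = 5, 3, 5 and 4). Their levels differed between groups in both directions. In old against young control 3 of the 8 genes on this list had positive and 5 negative changes, and 5 had an unadjusted p below 0.05 in edgeR. There edgeR called 0, DESeq2 called 3 higher and 2 lower, and limma-voom called 1 higher. Over all 24523 genes tested DESeq2 called 1263 in that comparison. In old Mito-Q against young control each of the 3 tools called 1 higher, and in the other comparisons each called 0. The young controls enter 3 of the 4 comparisons and the old controls enter 2, so the comparisons are not independent of each other.

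Vegfa (ENSMUSG00000023951, chromosome 17, 46016993 to 46032369, minus strand in GRCm38) encodes the growth factor that recruits blood vessels. It stood at 66.4, 29.2, 36.8, 28.3 and 49.9 CPM in old Mito-Q libraries 1 to 5, against 6.90, 4.57 and 6.90 CPM in old control libraries 1 to 3. In young CCCP libraries 1 to 5 it stood at 16, 5.81, 3.69, 3.93 and 11.4 CPM, against 182, 159, 127 and 228 CPM in young control libraries 1 to 4. The young controls were highest, the old Mito-Q libraries came next without touching any other group, and the young CCCP and old control libraries were low and overlapped each other. Group means were 42.1 ± 16.1 CPM in old Mito-Q (SD, n = 5), 6.12 ± 1.34 CPM in old control (n = 3), 8.16 ± 5.36 CPM in young CCCP (n = 5) and 174 ± 42.3 CPM in young control (n = 4). Behind the low values were 19 to 161 reads per library.

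**Figure D1:**
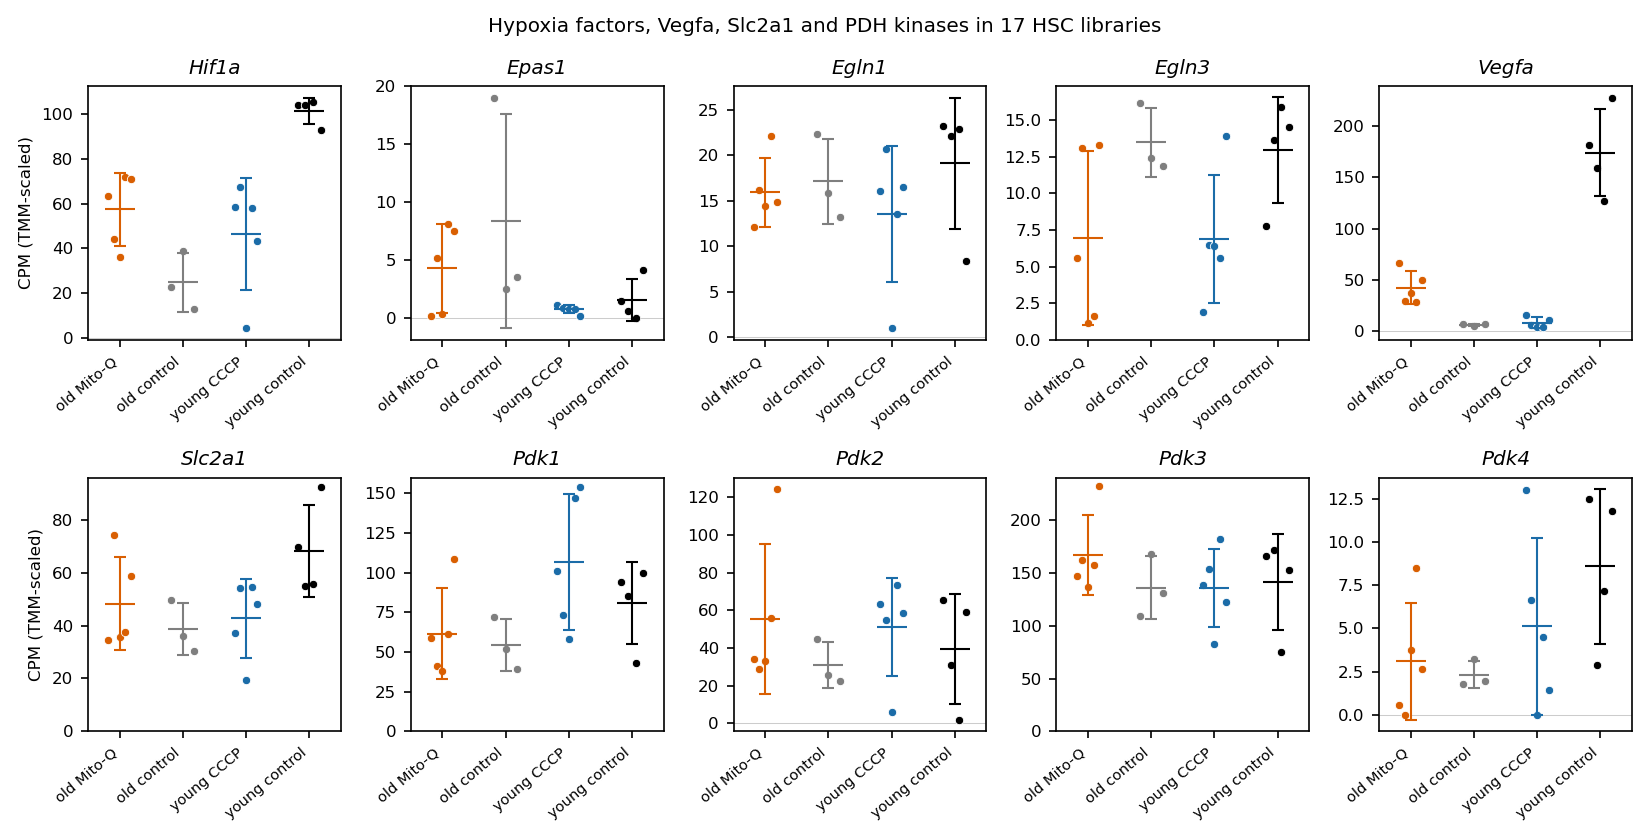
Level of each of the 10 genes in CPM (TMM-scaled, linear axis from near 0, its own scale per panel) in the 4 groups, with 1 point per library, a bar at the group mean and whiskers of 1 SD. Vegfa in the 4 young controls lies between 127 and 228 CPM, above every other library, and the 5 old Mito-Q libraries (28.3 to 66.4 CPM) lie above all old control and young CCCP libraries.

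The comparison of old Mito-Q with old control set aged animals given Mito-Q against aged animals without it. Vegfa rose, with a log2 fold change of 2.77 (SE 0.50, 95% interval 1.75 to 3.8, adjusted p = 0.00295 in edgeR's quasi-likelihood test), and was higher in 5 of 5 old Mito-Q libraries than in any old control. It was the 1 gene of the 10 that rose, where 0.542% of all genes tested were called (0.526% higher and 0.0163% lower), and the 1 gene whose libraries lay all above the old controls, as did those of 3.87% of all genes. The call was lost in limma-voom, where the change was 2.69 with adjusted p = 0.114, the highest of the 13 alternatives (1.37e-06 to 0.114).

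The comparison of old with young control asked about age. Vegfa fell (log2 fold change -4.82, SE 0.56, 95% interval -5.97 to -3.67, adjusted p = 8.00e-06 in edgeR's quasi-likelihood test) and was lower in 3 of 3 old controls than in any young control. It was the 1 called gene of the 10, where 1.69% of all genes were called, 1.17% lower and 0.522% higher. Vegfa, Hif1a and Slc2a1, 3 of the 10, had all old control libraries below all young control libraries, as had 6.5% of all genes.

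The comparison of young CCCP with young control set young animals given CCCP against young animals without it. Vegfa fell (log2 fold change -4.40, SE 0.44, 95% interval -5.30 to -3.50, adjusted p = 2.85e-07 in edgeR's quasi-likelihood test) in 5 of 5 young CCCP libraries. It was again the 1 called gene of the 10, where 0.718% of all genes were called (0.652% lower and 0.0652% higher). The same 3 genes, Vegfa, Hif1a and Slc2a1, had all young CCCP libraries below all young controls, as had 2.89% of all genes.

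Old Mito-Q HSCs were also set against young control HSCs, to place their level. Vegfa fell relative to young control, by a log2 fold change of -2.05 (SE 0.40, 95% interval -2.87 to -1.23, adjusted p = 0.0207 in edgeR's quasi-likelihood test) and 5 of 5 old Mito-Q libraries below every young control. It was the 1 called gene of the 10, where 0.143% of all genes were called (0.0122% lower and 0.130% higher), and Vegfa and Hif1a were the 2 of the 10 with all old Mito-Q libraries below all young controls, as were those of 1.36% of all genes. The call was lost with scaling by library totals (adjusted p = 0.0557, in a range of 0.000224 to 0.0557 over 13 alternatives), and on leaving out any 1 of the 9 libraries other than old Mito-Q 1 or young control 3 (adjusted p = 0.0548 to 0.142, log2 fold change -2.11 to -1.89).

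**Figure D2:**
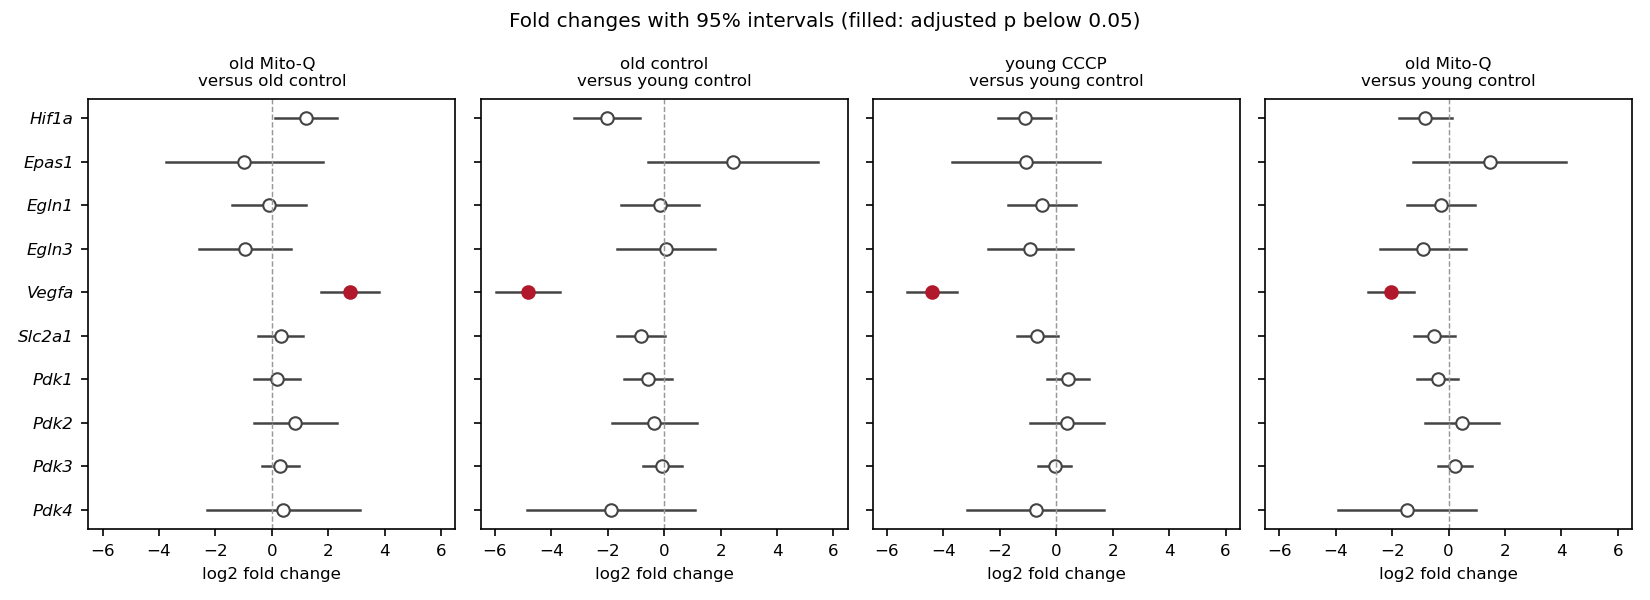
Log2 fold change (x axis) of each of the 10 genes in the 4 comparisons, the group named first over the group named second, with 95% intervals; filled points have an adjusted p below 0.05 in edgeR. Vegfa is the filled point in each panel, at 2.77, -4.82, -4.40 and -2.05, and the intervals of Epas1 and Pdk4 are the widest.

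The deposited files carry codes in the form of plate wells, read here as wells although no label says so. The letter, taken as the row, was A for every old library and young controls 1 and 2. It was C for every young CCCP library and young controls 3 and 4. Within row A the Vegfa change was 2.78 for old Mito-Q against old control (adjusted p = 0.000266), -4.80 for old against young control (adjusted p = 2.29e-06) and -2.02 for old Mito-Q against young control (adjusted p = 0.0190), all by edgeR. Within row C it was -4.43 for young CCCP against young control (adjusted p = 0.00390). Over all libraries the changes were 2.77, -4.82 and -2.05 in the first 3 of these comparisons and -4.40 in the last. Of the young controls, row A held only 1 and 2, and row C only 3 and 4. The part of the row in the Vegfa result was not tested. Without young control 3 and young CCCP 3 the Vegfa changes were 2.78 in old Mito-Q against old control, -4.95 in old against young control, -4.35 in young CCCP against young control and -2.17 in old Mito-Q against young control. Without old control 1 and young CCCP 3 they were 2.87, -4.92, -4.23 and -2.05 in the same comparisons, and in both fits edgeR called all 4.

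Immediate early transcripts, 20 genes such as Fos and Nr4a1 that cells induce within minutes of stimulation or handling, moved with Vegfa. Their summed level was 18976 to 32391 CPM in old Mito-Q, 1229 to 2138 CPM in old control, 547 to 946 CPM in young CCCP and 9851 to 17424 CPM in young control libraries, and none of the 20 was at 0 throughout a group. Of the 20, 19 rose in old Mito-Q against old control (median log2 fold change 4.51, against -0.12 over all genes), 17 fell in old against young control (median -3.50, against 0.16) and 19 fell in young CCCP against young control (median -4.32, against 0.21). In old Mito-Q against young control edgeR called 0 of the 20, with 12 at an unadjusted p below 0.05, 4 called by DESeq2 and 7 by limma-voom, and the median was 0.84. In that comparison, then, Vegfa was lower while the immediate early median was above that of all genes (0.01). The part of the immediate early change in the Vegfa result was not tested.

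**Figure D3:**
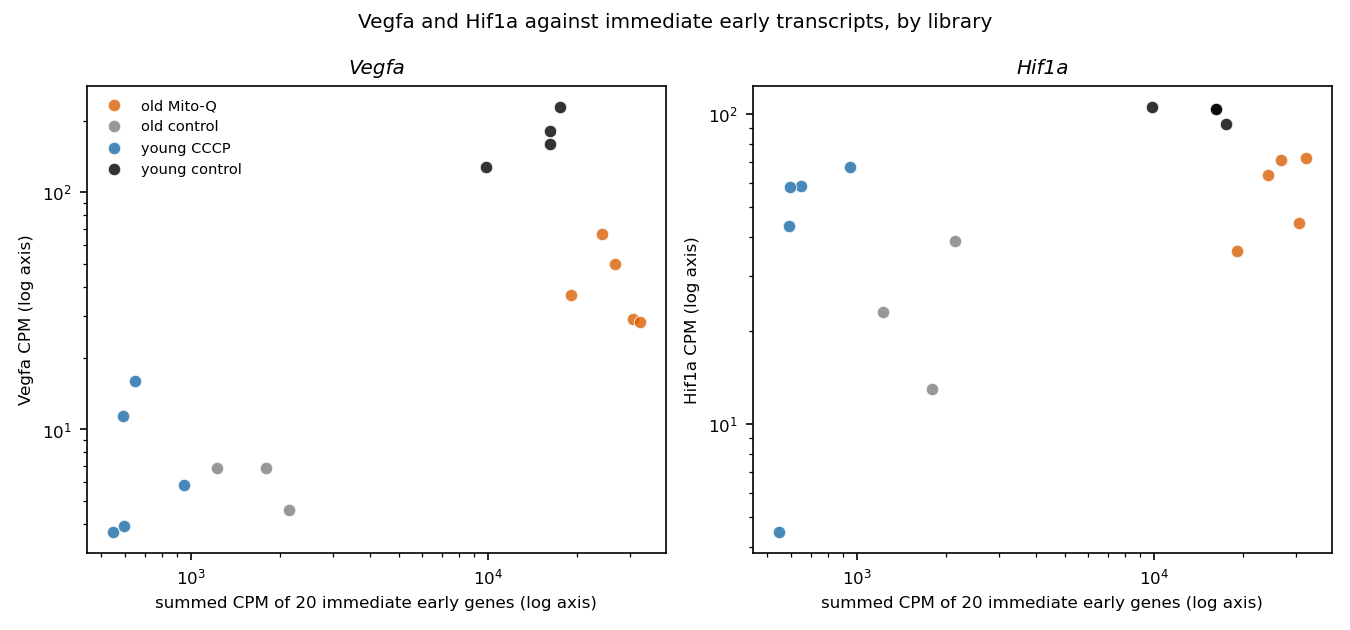
Vegfa (left) and Hif1a (right) CPM against the summed CPM of 20 immediate early genes, 1 point per library coloured by group, both axes logarithmic. Old Mito-Q libraries have the highest immediate early sums (18976 to 32391 CPM), yet their Vegfa (28.3 to 66.4 CPM) lies below that of the young controls (127 to 228 CPM).

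Other cell types were looked for through their markers. The 10 neutrophil and granule genes summed to 983 to 14235 CPM in old Mito-Q, 1089 to 2393 CPM in old control, 762 to 16321 CPM in young CCCP and 416 to 2198 CPM in young control libraries. None of the 10 was at 0 throughout a group. The most abundant were S100a8, at 1804 ± 1693 CPM in old Mito-Q, 341 ± 102 CPM in old control, 2533 ± 2024 CPM in young CCCP and 171 ± 210 CPM in young control (SD, n = 5, 3, 5 and 4), and S100a9. Of the 10, 1 rose in old against young control and in old Mito-Q against young control (Prtn3 in both), 1 rose in young CCCP against young control (Elane), and 0 were called in old Mito-Q against old control, all by edgeR. DESeq2 called more of the 10 as higher, with 8 in young CCCP against young control, 4 in old Mito-Q against old control, 5 in old Mito-Q against young control and 2 in old against young control, while limma-voom called 0, 0, 1 and 1. Over all 24523 genes tested DESeq2 called 558, 445, 187 and 1263 in the same order, in either direction. In young CCCP against young control 10 of the 10 had a positive log2 fold change (median 3.70, against 0.21 over all genes) and 9 had an unadjusted p below 0.05 in edgeR. With Mito-Q, 9 were positive against old control (median 2.43, beside -0.12 over all genes) and 5 had such a p, and 10 were positive against young control (median 3.15, beside 0.01) and 9 had such a p. Their part in the Vegfa result was not tested, and in bulk libraries fewer cells of a type and less RNA per cell cannot be told apart. The 7 endothelial markers, several of which HSCs also express, summed to 237 to 345 CPM in old Mito-Q, 164 to 284 CPM in old control, 272 to 520 CPM in young CCCP and 255 to 382 CPM in young control libraries. DESeq2 called 1 of the 7 as lower in old against young control, where edgeR and limma-voom called 0. The 8 erythroid markers summed to 62.3 to 855 CPM in old Mito-Q, 95.4 to 325 CPM in old control, 148 to 1323 CPM in young CCCP and 67.7 to 232 CPM in young control libraries, and in young CCCP against young control all 8 log2 fold changes were positive (median 1.28). The 6 monocyte and macrophage markers summed to 24.8 to 139 CPM in old Mito-Q, 38.4 to 50.8 CPM in old control, 23.7 to 206 CPM in young CCCP (median 131) and 5.00 to 42.7 CPM in young control libraries (median 29.2), with all 6 log2 fold changes positive in young CCCP against young control (median 1.59). The 6 stromal markers summed to 6.10 to 32.9 CPM in old Mito-Q, 11.8 to 98.8 CPM in old control, 21.8 to 127 CPM in young CCCP (median 58.8) and 23.5 to 33.3 CPM in young control libraries (median 29.7). No gene of these 3 lists was called by edgeR. At most 3 of 8, 1 of 6 and 1 of 6 had an unadjusted p below 0.05 in any comparison, beside 1935 to 3487 of all 24523 genes. DESeq2 called 1 monocyte and macrophage marker as higher in young CCCP, and limma-voom called 0. The 6 megakaryocyte markers summed to 211 to 302 CPM in old Mito-Q, 267 to 363 CPM in old control, 186 to 335 CPM in young CCCP and 174 to 356 CPM in young control libraries. Of these Gp9, a platelet glycoprotein, rose in old against young control (84.9 ± 31.6 CPM in old control, n = 3, and 28.3 ± 7.49 CPM in young control, n = 4; log2 fold change 1.58, adjusted p = 0.0359 in edgeR). DESeq2 also called 1 of this list as higher there, and 1 as higher in young CCCP against young control, while limma-voom called 0 in both. Over all libraries the sums were 39.8 to 191 CPM for 6 B cell and 11.9 to 64.6 CPM for 6 T cell markers. The part of these markers in the Vegfa result was not tested either. Cd8a, a T cell marker, was at 0 in all old Mito-Q and all old control libraries, and Gp1bb, a platelet marker, in all young controls.

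Among 10703 tested genes of sufficient level, the 3 whose log2 CPM followed Vegfa most closely across the 17 libraries were Tnfaip3, an inhibitor of NF-κB signalling (Pearson r = 0.94), Dnajb9, a chaperone of the endoplasmic reticulum (r = 0.91), and Plaur, the urokinase receptor (r = 0.91). These points share libraries and fall into groups, so r is a description. Dnajb9 was at 71.8 ± 13.9 CPM in old Mito-Q, 12.6 ± 2.15 CPM in old control, 22.4 ± 6.69 CPM in young CCCP and 105 ± 4.38 CPM in young control (SD, n = 5, 3, 5 and 4). Tnfaip3 stood at 70.5 ± 23.2, 15.5 ± 10.1, 20.5 ± 7.37 and 152 ± 32.5 CPM in old Mito-Q, old control, young CCCP and young control libraries. In both, young control was above old Mito-Q, which was above the other groups. Plaur stood at 65.0 ± 43.4, 21.3 ± 5.96, 19.3 ± 8.19 and 96.9 ± 26.2 CPM in the same groups. Its old Mito-Q libraries (42.3 to 142 CPM) overlapped the young controls (76.1 to 134 CPM). Since the 3 genes were picked for following Vegfa in these libraries, a shared order is no separate evidence.

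Hif1a (ENSMUSG00000021109, chromosome 12, 73901375 to 73947530, plus strand) encodes the oxygen-regulated subunit of HIF-1. It stood at 63.5, 44.3, 36.1, 71.9 and 71.0 CPM in old Mito-Q libraries 1 to 5, against 23, 38.8 and 12.9 CPM in old control libraries. In young CCCP libraries it stood at 58.4, 67.2, 4.47, 58.1 and 43.5 CPM, against 104, 104, 105 and 92.7 CPM in young control libraries. The young controls were the highest group and kept clear of every other library, while old Mito-Q, young CCCP and old control followed in that order of means (57.4 ± 16.3, 46.3 ± 24.9 and 24.9 ± 13.1 CPM; SD, n = 5, 5 and 3) and overlapped their neighbours.

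In old against young control the Hif1a change was -2.03 (SE 0.56, 95% interval -3.18 to -0.87, 4.07-fold lower), with 3 of 3 old controls below every young control and adjusted p = 0.0666 in edgeR's quasi-likelihood test. This value lies next to the threshold: 7 of 13 alternatives, DESeq2 among them (adjusted p = 0.00920), called it, 6 did not (0.00231 to 0.130 over the 13), and leaving out 1 library at a time gave adjusted p = 0.0805 to 0.393. Within well row A it was -2.07 with adjusted p = 0.0214. The other changes were not called by edgeR, at 1.2 (95% interval 0.12 to 2.29, adjusted p = 0.435) in old Mito-Q against old control, -1.13 (-2.07 to -0.18, adjusted p = 0.370, or -0.81 without young control 3 and young CCCP 3) in young CCCP against young control and -0.82 (-1.76 to 0.12, adjusted p = 0.716) in old Mito-Q against young control. Young CCCP 3, the library at 4.47 CPM, had 23 Hif1a reads beside 61 reads of Gm15283, an antisense gene that overlaps Hif1a; elsewhere Gm15283 had 4 to 75 reads beside 73 to 789 of Hif1a. Since the strand setting of the counting was not given, reads of the pair cannot be told apart.

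Epas1 (ENSMUSG00000024140, chromosome 17, 86753700 to 86833410, plus strand) encodes the HIF-2 subunit, prominent in endothelial cells. It was close to the floor in many libraries, at 0.140, 5.14, 0.327, 8.14 and 7.51 CPM in old Mito-Q and 19, 2.48 and 3.54 CPM in old control. Young CCCP libraries held 1.09, 0.811, 0.778, 0.715 and 0.160 CPM, and young controls held 1.45, 0.546, 0 and 4.10 CPM. The groups overlapped in every comparison, and the single high value was old control 1. In that library the 6 stromal markers summed to 98.8 CPM, against 11.8 and 21.6 CPM in the other old controls. Young CCCP 3 and 5 had stromal sums of 127 and 121 CPM, with Epas1 at 0.778 and 0.160 CPM. The part of stromal cells in the Epas1 level was not tested. The Epas1 change in old against young control was 2.43 with a 95% interval of -0.58 to 5.44 (adjusted p = 0.481 in edgeR), an interval too wide to show a difference at this depth. It was 1.01 without old control 1 and 3.59 without young control 4. Per kilobase of exon its mean over the 17 libraries was 0.589 CPM, the lowest of the 10 genes, against 9.96 CPM for Hif1a. Old control 1 also held 7 reads, and young CCCP 3 held 123 reads, of AC096777.1, a same-strand gene model that overlaps Epas1.

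Egln1 (ENSMUSG00000031987, chromosome 8, 124908587 to 124949324, minus strand) encodes PHD2, the main oxygen sensor for HIF-1α. It stood at 12.1 to 22.1 CPM in old Mito-Q, 13.3 to 22.4 CPM in old control, 0.972 to 20.7 CPM in young CCCP and 8.33 to 23.3 CPM in young control libraries, with all groups overlapping. The change was -0.11 (95% interval -1.42 to 1.21) in old Mito-Q against old control, -0.16 (-1.54 to 1.23) in old against young control and -0.49 (-1.70 to 0.71) in young CCCP against young control. Its lowest value, 0.972 CPM, was again young CCCP 3.

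Egln3 (ENSMUSG00000035105, chromosome 12, 54178981 to 54203860, minus strand) encodes PHD3, itself a HIF target in many cells. It stood at 5.62, 13.1, 1.14, 1.63 and 13.3 CPM in old Mito-Q libraries, against 16.2, 12.4 and 11.8 CPM in old control libraries. Young CCCP libraries held 1.89, 6.49, 6.42, 5.6 and 13.9 CPM, against 7.75, 13.6, 15.9 and 14.5 CPM in young control libraries. Of the treated libraries, 3 of 5 old Mito-Q and 4 of 5 young CCCP libraries were below every library of their control group, but both pairs of groups overlapped. The changes of -0.95 (95% interval -2.58 to 0.68, adjusted p = 0.777) with Mito-Q and -0.92 (-2.44 to 0.60, adjusted p = 0.707) with CCCP were not called by edgeR. Between the control groups the means were 13.5 ± 2.36 CPM in old and 12.96 ± 3.59 CPM in young (SD, n = 3 and 4).

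Slc2a1 (ENSMUSG00000028645, chromosome 4, 119108711 to 119137983, plus strand) encodes GLUT1, which carries glucose into the cell. It stood at 34.7, 74.4, 35.8, 37.6 and 58.7 CPM in old Mito-Q libraries and 49.7, 36.2 and 30.2 CPM in old control libraries. Libraries of young CCCP held 37.3, 54.2, 19.2, 54.4 and 48.1 CPM, against 69.8, 55.0, 55.7 and 92.3 CPM in young control libraries. Every old control and young CCCP library was below every young control, by a narrow margin of less than 1 CPM for CCCP. The changes were -0.82 (SE 0.41, 95% interval -1.66 to 0.03, adjusted p = 0.370) in old against young control and -0.68 (SE 0.35, -1.40 to 0.05, adjusted p = 0.493) in young CCCP against young control, not called by edgeR. For old Mito-Q the change was 0.32 (-0.49 to 1.12) against old control and -0.50 (-1.23 to 0.23) against young control. Overlapping antisense genes held at most 17 reads, against at least 99 of Slc2a1.

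The 4 kinases phosphorylate the E1 subunit of pyruvate dehydrogenase and thereby switch it off. Per kilobase of exon, Pdk3 (ENSMUSG00000035232, chromosome X, 93764607 to 93832201, minus strand) was the most abundant, with a mean of 57.2 CPM over the 17 libraries, followed by Pdk2 at 14.6 CPM, Pdk1 at 10.04 CPM and Pdk4 at 1.38 CPM. Pdk3 made up 73.0% ± 7.30 of the summed kinase level in old Mito-Q, 75.0% ± 9.37 in old control, 64.4% ± 8.57 in young CCCP and 70.2% ± 7.73 in young control (SD, n = 5, 3, 5 and 4). The summed level itself was 91.7 ± 30.6 CPM per kilobase in old Mito-Q, 70.6 ± 9.35 in old control, 84.4 ± 26.4 in young CCCP and 80.6 ± 29.2 in young control, with all groups overlapping. Pdk3 led in every library.

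**Figure D4:**
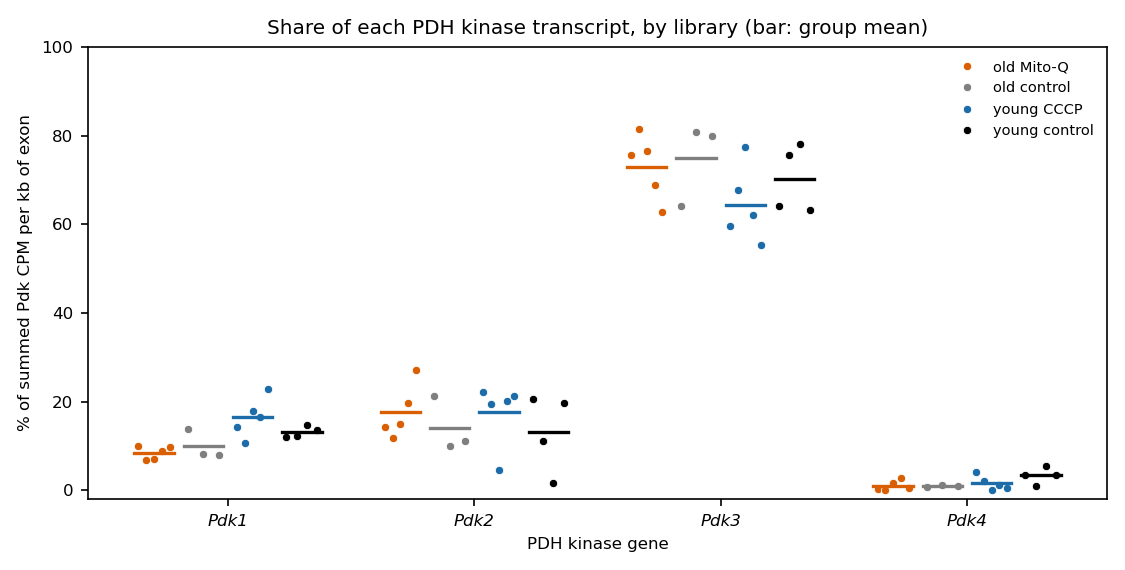
Share of each kinase gene in the summed CPM per kilobase of exon of Pdk1 to Pdk4 (y axis, %), 1 point per library, with a bar at the group mean. Pdk3 has the largest share in all 17 libraries (55.3% to 81.4%), and Pdk4 stays at or below 5.46%.

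Pdk3 in CPM stood at 147, 162, 137, 158 and 233 in old Mito-Q libraries, against 110, 168 and 131 in old control libraries. In young CCCP libraries it stood at 138, 154, 82.8, 182 and 122 CPM, against 166, 172, 74.8 and 153 CPM in young control libraries. The 2 lowest values were the young libraries that stood apart, young CCCP 3 and young control 3. The change was 0.30 (95% interval -0.36 to 0.95) in old Mito-Q against old control, -0.06 (-0.74 to 0.62) in old against young control and -0.06 (-0.65 to 0.54) in young CCCP against young control, intervals that leave out changes above 2-fold in either sense.

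Pdk1 (ENSMUSG00000006494, chromosome 2, 71873224 to 71903858, plus strand) is the kinase gene most often described as a HIF-1 target. It stood at 59.1, 41.2, 37.8, 61.2 and 109 CPM in old Mito-Q libraries and 72.0, 51.8 and 39.4 CPM in old control libraries. In young CCCP libraries it stood at 101, 73.6, 58.3, 147 and 154 CPM, against 94.4, 85.3, 43.1 and 99.97 CPM in young control libraries. The means were highest in young CCCP (107 ± 42.9 CPM) and lowest in old control (54.4 ± 16.4 CPM), but all neighbours in the order overlapped. The changes were 0.40 (95% interval -0.34 to 1.15, adjusted p = 0.742) in young CCCP against young control and -0.57 (-1.43 to 0.29, adjusted p = 0.601) in old against young control, by edgeR. With CCCP, Pdk1 was above the young control median of 89.8 CPM in 3 of 5 libraries, whereas Vegfa was below every young control in 5 of 5; the difference between these genes was not tested. As a share of the kinases Pdk1 took 6.81% to 9.97% in old Mito-Q and 12.0% to 14.8% in young control libraries, which do not overlap; this pair was picked after its values were seen and was not tested.

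Pdk2 (ENSMUSG00000038967, chromosome 11, 95026258 to 95041354, minus strand) is the widely expressed kinase. It stood at 34.4, 29.0, 33.2, 55.8 and 124 CPM in old Mito-Q libraries and 44.7, 25.5 and 22.6 CPM in old control libraries. In young CCCP libraries it stood at 63.3, 54.8, 6.03, 73.4 and 58.4 CPM, against 65.7, 31.2, 1.96 and 59.1 CPM in young control libraries. The lowest values were again young CCCP 3 and young control 3, with 31 and 9 reads, and the highest was old Mito-Q 5. Changes were 0.84 (95% interval -0.63 to 2.31) in old Mito-Q against old control, -0.35 (-1.86 to 1.15) in old against young control and 0.37 (-0.94 to 1.69) in young CCCP against young control. The antisense gene Gm11513 overlaps Pdk2 and held 77 reads in old control 1, beside 376 of Pdk2, and at most 14 elsewhere.

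Pdk4 (ENSMUSG00000019577, chromosome 6, 5483351 to 5496309, minus strand), the kinase induced by fasting through PPAR and FOXO factors, was low. It stood at 0.562, 0, 3.76, 8.46 and 2.66 CPM in old Mito-Q and 1.78, 3.24 and 1.95 CPM in old control libraries. Young CCCP libraries held 13, 6.63, 0, 4.53 and 1.44 CPM, against 12.5, 2.86, 7.18 and 11.8 CPM in young control libraries. The young controls had the highest mean (8.57 ± 4.47 CPM), yet overlapped every other group. Its change in old against young control was -1.88 with a 95% interval of -4.85 to 1.09 (adjusted p = 0.623 in edgeR), too wide to show a difference at this depth.

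Other genes of the pathway were taken from 6 lists. Of 16 genes that regulate HIF, Siah2, a ubiquitin ligase that degrades prolyl hydroxylases, was the 1 that edgeR called. DESeq2 called 1 higher in old Mito-Q against old control, 1 higher and 3 lower in old against young control and 1 lower in young CCCP against young control. Over all 24523 genes tested DESeq2 called 445, 1263 and 558 in these comparisons, in either direction. An unadjusted p below 0.05 in edgeR went to 3, 5 and 3 of the 16 in the same order, beside 2464, 3487 and 2735 of all genes. Siah2 rose in old Mito-Q against old control (94.4 ± 27.2 CPM, n = 5, and 12.0 ± 9.75 CPM, n = 3; log2 fold change 2.97, SE 0.56, adjusted p = 0.00526 in edgeR). It fell in old against young control (98.2 ± 16.97 CPM in young control, n = 4; log2 fold change -3.03, adjusted p = 0.00386) and in young CCCP (13.99 ± 10.4 CPM, n = 5) against young control (-2.80, adjusted p = 0.000802). Against young control old Mito-Q differed by -0.06, without a call. The median of the list was 0.30 in old Mito-Q against old control, -0.47 in old against young control and -0.25 in young CCCP against young control, beside -0.12, 0.16 and 0.21 over all genes. Without old control 1 the first 2 of these were 0.53 and -0.54, beside 0.31 and -0.35 over all genes, so the distance between list and all genes was smaller, and without young CCCP 3 the third was -0.03, beside 0.12. Without young control 3 the 3 medians were 0.32, -0.50 and -0.19, beside -0.11, 0.11 and 0.14. Egln2, the third prolyl hydroxylase gene, and Vhl, Arnt and Hif1an were not called in any comparison by edgeR.

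Of 46 HIF target genes tested, Bhlhe40, a transcriptional repressor that also takes part in the circadian clock, stood at 417 ± 106 CPM in old Mito-Q (n = 5), 19.4 ± 10.4 CPM in old control (n = 3), 20.8 ± 11.9 CPM in young CCCP (n = 5) and 229 ± 47.6 CPM in young control (n = 4). It rose by 4.42 in old Mito-Q against old control (adjusted p = 3.47e-06) and fell by 3.56 in old against young control (adjusted p = 4.27e-05) and by 3.47 in young CCCP against young control (adjusted p = 1.38e-06, all log2 fold changes by edgeR). Wsb1, a subunit of ubiquitin ligases, fell in old against young control (-1.89, adjusted p = 0.0101) and in young CCCP against young control (-1.57, adjusted p = 0.0141). The other 44 targets, glycolytic enzymes such as Ldha and Pgk1 and mitophagy receptors such as Bnip3 among them, were not called in any comparison by edgeR. Of the 46, an unadjusted p below 0.05 in edgeR went to 7 in old Mito-Q against old control, 10 in old against young control and 7 in young CCCP against young control. Over all 24523 genes the numbers were 2464, 3487 and 2735. The medians of the 46 were 0.12 in old Mito-Q against old control, -0.17 in old against young control and -0.12 in young CCCP against young control, beside -0.12, 0.16 and 0.21 over all genes. Without old control 1 they were 0.40 in old Mito-Q against old control and -0.30 in old against young control, beside 0.31 and -0.35. Without young control 3 the 3 medians were 0.12, -0.21 and -0.18, beside -0.11, 0.11 and 0.14. Without young CCCP 3 the median in young CCCP against young control was -0.13, beside 0.12. DESeq2 called 3 of the 46 higher in old Mito-Q against old control and 3 higher and 4 lower in old against young control. In young CCCP against young control it called 1 higher and 3 lower. Over all 24523 genes tested DESeq2 called 445, 1263 and 558 in these comparisons, in either direction. From this list limma-voom called as many as edgeR in each of them. In old Mito-Q against young control edgeR called 0 of the 46, and 9 had an unadjusted p below 0.05, beside 1935 of all 24523 genes. DESeq2 there called 1 higher and 1 lower of the 46, beside 187 of all 24523 genes, and limma-voom called 0 of the 46.

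**Figure D5:**
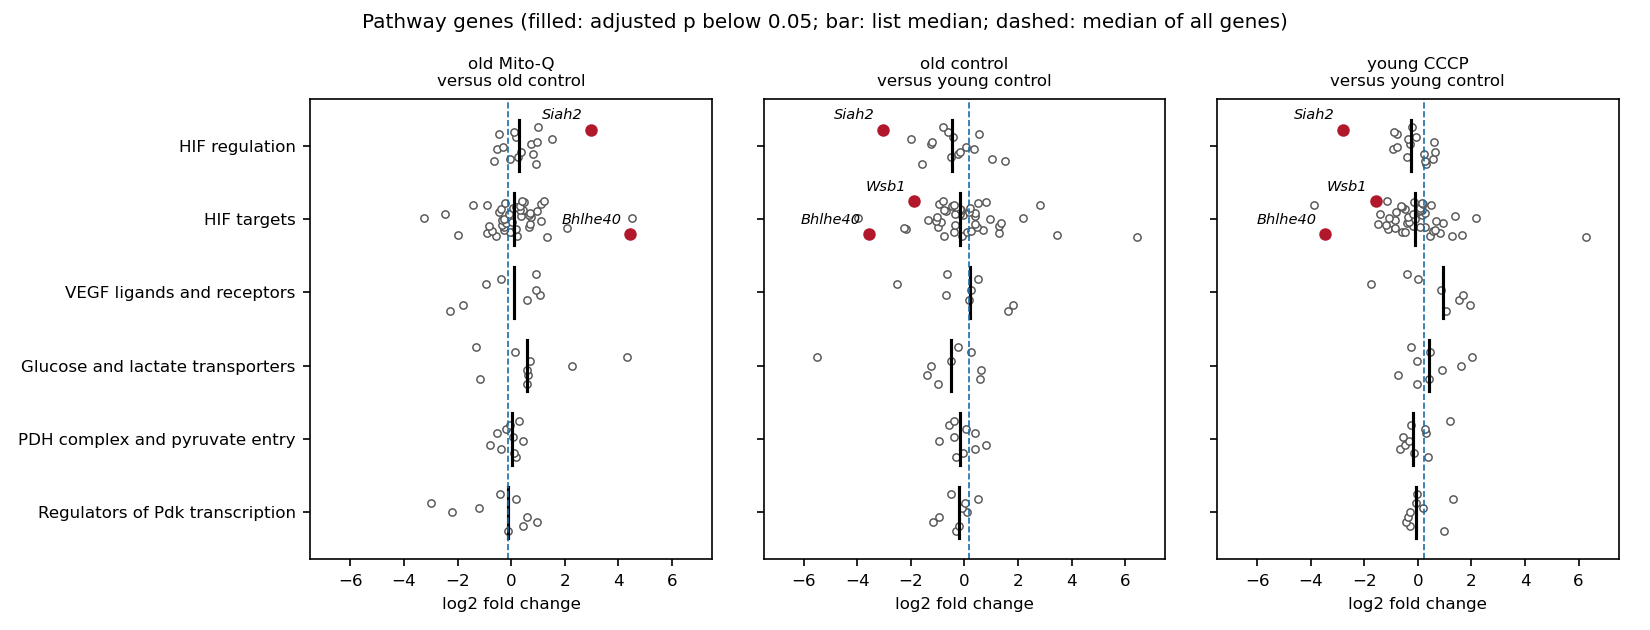
Log2 fold changes (x axis) of the genes tested in the 6 pathway lists, 1 point per gene, in 3 comparisons with the group named first over the group named second; filled and named points have an adjusted p below 0.05 in edgeR, bars are list medians and the dashed line is the median of all genes tested. Siah2 and Bhlhe40 are filled on the right for Mito-Q and on the left for age and CCCP, with Wsb1 also filled on the left for age and CCCP.

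The remaining 4 lists gave 0 calls in every comparison by edgeR, DESeq2 and limma-voom. At an unadjusted p below 0.05 edgeR found at most 1 of 10 genes of the pyruvate dehydrogenase complex and pyruvate entry in any comparison. It found at most 1 of 8 VEGF ligands and receptors, 2 of 9 other glucose and lactate transporters and 2 of 9 regulators of Pdk transcription. Over all 24523 genes tested, 1935 to 3487 had such a p in a comparison. Vegfb and Vegfc, the related ligands, had means of 18.6 and 11.2 CPM per kilobase over the 17 libraries, beside 13.3 for Vegfa, and Vegfb stood at 29.8 ± 7.91 CPM in old Mito-Q, 38.8 ± 1.71 CPM in old control, 26.9 ± 4.09 CPM in young CCCP and 27.1 ± 9.81 CPM in young control (SD, n = 5, 3, 5 and 4). The VEGF receptor genes Kdr and Flt1 were low, at 1.94 and 0.249 CPM per kilobase.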

How the data were processed

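RNA was sequenced from 17 libraries of sorted HSCs. Reads were trimmed with Trim Galore and aligned with STAR 2.7 to GRCm38, per the submitters' processing notes; the counting program, annotation release and strand setting are not given in the sources used here. The authors deposited raw read counts for 54838 genes per library, with 5 further entries for unassigned reads, which were kept out of library sizes and tests. Reads of no single gene (no gene or several) made up 29.6% to 74.1% of a library's gene-assigned and such reads. Symbols, coordinates and exon lengths came from GENCODE M21, which matched 54723 of the gene IDs. Low counts were removed by filterByExpr, given the groups and a minimum of 10 reads, and libraries were scaled by TMM. A model of 4 group means without covariate was then fitted with robust quasi-likelihood dispersions (edgeR 4.0.16, R 4.3.3). The two-sided quasi-likelihood F-test covered 24523 genes, with Benjamini-Hochberg adjustment and calls below 0.05. Standard errors are the fold change over the square root of F. CPM use library sizes over the tested genes. No pair of replicates was a duplicate (lowest chi-square per degree of freedom 18.2). The procedure was tested on simulated data.

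The 10 genes, the 6 pathway lists, the marker lists and the immediate early list were chosen with earlier results of these data known. All 10 genes are named, together with up to 4 called genes per list and comparison, the 3 genes most like a called member, and the 2 most abundant markers of a list that moves with one. Aldoa matched 2 gene IDs and was left out. Alternatives were other scalings and filters, DESeq2 1.42.0, limma-voom (limma 3.58.1), the replicate number as a block, fits of only the compared groups, libraries left out, a quality covariate and fits within a well row. One marker gene is not reported here.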

Additional observations from a re-analysis of the deposited data

Results flagged for a closer look

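In 30 groups of 4 or 5 libraries (10 genes in 3 groups), 5 held a library far from the others of its group by Dixon's criterion, which chance alone gives in about 1 of 20 groups. Hif1a was 92.7 CPM in young control 4, against 104 to 105 CPM in the other young controls. Egln1 was 8.33 CPM in the same library, against 22.1 to 23.3 CPM in the other young controls. Pdk2 was 124 CPM in old Mito-Q 5, against 29.0 to 55.8 CPM in the other old Mito-Q libraries, and Pdk3 was 233 CPM in that library, against 137 to 162 CPM in the others. Pdk2 was 6.03 CPM in young CCCP 3, against 54.8 to 73.4 CPM in the other young CCCP libraries.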

How the results depend on the processing

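Vegfa kept its direction under all 13 alternatives and on leaving out any 1 library in every comparison, with log2 fold changes of 2.52 to 2.91 without 1 library in old Mito-Q against old control, -4.96 to -4.66 in old against young control, -4.81 to -4.22 in young CCCP against young control and -2.28 to -1.89 in old Mito-Q against young control. Its calls were lost in limma-voom for old Mito-Q against old control (2.69, 0 of the 10 genes called) and with library totals for old Mito-Q against young control (-2.09, 0 called; 0 to 1 called without 1 library); the cause was not tested. In old against young control Hif1a passed the threshold, giving 2 called genes of the 10, without a filter, in DESeq2, with the replicate block, with only the 2 groups compared, without young control 3 and young CCCP 3, without old control 1 and young CCCP 3, and within the well row (log2 fold change -2.14 to -1.95).

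Counts over all genes moved more. In old against young control (415 called) DESeq2 called 1263, the fit of only the 2 groups 186, the fit without young control 3 and young CCCP 3 1271, the fit without old control 1 and young CCCP 3 1306, and fits without 1 library 125 (without old control 2) to 684 (without old control 1). In old Mito-Q against old control (133) these were 445 in DESeq2, 341 without young control 3 and young CCCP 3, 384 without old control 1 and young CCCP 3, 203 within the well row and 79 to 142 without 1 library. In young CCCP against young control (176) they were 324 without a filter, 558 in DESeq2, 111 with only the 2 groups and 56 within the well row. In old Mito-Q against young control (35) they were 90 without a filter, 187 in DESeq2, 57 in limma-voom, 68 without young control 3 and young CCCP 3, 66 without old control 1 and young CCCP 3, and 14 to 34 without 1 library. Called pathway genes in old against young control (3) were 11 in DESeq2, 6 with the replicate block, 10 without young control 3 and young CCCP 3, 8 without old control 1 and young CCCP 3 and 1 to 6 without 1 library. They were 4 in DESeq2, 4 without young control 3 and young CCCP 3 and 1 to 2 without 1 library for old Mito-Q against old control (2), 5 in DESeq2 and 1 within the well row for young CCCP against young control (3), and 2 in DESeq2 for old Mito-Q against young control (0).

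Genes near no change turned in sign without a call. In old against young control Pdk3 was 0.019 with DESeq2 size factors, 0.018 in DESeq2, 0.082 with upper-quartile factors, 0.073 with the replicate block, 0.075 without old control 1 and young CCCP 3 and -0.27 to 0.13 without 1 library. In the same comparison Egln1 was 0.00044 and Pdk2 0.17 in limma-voom, Pdk2 was 0.36 with the replicate block and -0.77 to 0.0068 without 1 library, and Egln3 was -0.10 without old control 1 and young CCCP 3 and -0.12 to 0.15 without 1 library. In old Mito-Q against old control Pdk4 was -0.89 in limma-voom and -0.41 to 0.75 without 1 library, and Pdk1 was -0.23 with the replicate block and -0.13 to 0.38 without 1 library. Epas1 was 0.50 and Egln1 0.13 without old control 1 and young CCCP 3, and -1.35 to 0.44 and -0.26 to 0.073 without 1 library. In young CCCP against young control Pdk3 was 0.0035 with DESeq2 size factors, 0.062 with library totals, 0.0033 in DESeq2, 0.073 without old control 1 and young CCCP 3, 0.065 with the covariate, 0.25 within the well row and -0.28 to 0.074 without 1 library, where Epas1 was -1.51 to 0.0765 and Pdk2 -0.018 to 0.73. In old Mito-Q against young control Pdk3 was -0.018 within the well row, and Pdk2 was -0.055 to 0.84 without 1 library.

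Upper-quartile factors moved the median change over all genes to -0.25 in old Mito-Q against old control and 0.28 in old against young control, and library totals moved it to 0.33 in young CCCP against young control; leaving out old control 1 moved it to 0.31 and -0.35 in the first pair of comparisons. The replicate block changed no call among the 10 genes other than that of Hif1a in old against young control, and the pairing it assumes is not shown by the data, since deviations from group means correlated by -0.11 to 0.12 between same-numbered libraries, and 5 of 14 pairs correlated best with their own number. Mean levels by library totals differed from those with TMM factors by less than 1 SD for every gene and group. Genes of a few reads, Epas1 and Pdk4, had intervals several log2 units wide.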
